A study of Mus musculus with 15 samples.

Results

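The genes described here are 35 genes of sugar metabolism and of the hypoxia response, read on 15 single-colour arrays of mouse bone marrow-derived macrophages. They were chosen by name, with earlier results of these data known. The set holds glucose transporters and glycolytic enzymes, the lactate carriers, and the kinases that set the pace of glycolysis or block pyruvate oxidation. It also holds 4 pentose phosphate enzymes, and the transcription factor gene Hif1a with some of its regulators and targets. A probe carrying the RefSeq accession of the gene was found for all 35, and 34 of the 14192 genes tested on the arrays are members. The remaining member is Pdk4, whose product blocks pyruvate oxidation. Its processed signal was 4.16 to 10.9 in LPS-treated knockout cells, 1.29 to 43.0 in untreated knockout cells, against 3.62 to 23.6 (LPS) and -0.958 to 10.1 (untreated) in wild type cells. It was well above background on 1 untreated knockout array and on no other, so it was not tested.

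The macrophages had been differentiated from marrow with MCSF, the macrophage growth factor, on a C57BL/6 background. Knockout cells, with the genotype Junb-fl/fl Lyz2-Cre+/+, gave 3 arrays after lipopolysaccharide (LPS, a bacterial cell wall component, 100 ng/ml for 4 h) and 4 untreated arrays. Wild type cells, labelled only C57BL/6, gave 4 LPS and 4 untreated arrays. Cre sits in the Lyz2 locus, so that Junb is deleted in myeloid cells and the lysozyme gene itself is disrupted on both chromosomes. The replicates were separate culture wells. The labels do not tie them to separate mice, and p-values reflect only how these wells varied.

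Glycolysis splits glucose into pyruvate. Its pace is set mainly by glucose uptake, by hexokinase and by phosphofructokinase. Cells that make lactate export it with protons through monocarboxylate transporters, and the pentose phosphate pathway branches off after hexokinase and yields NADPH and ribose. HIF1A is a transcription factor that prolyl hydroxylases mark for destruction in oxygen, and its targets include most glycolytic genes. Macrophages that sense LPS are known for a high rate of glycolysis in air and for HIF1A protein that persists in the presence of oxygen. Junb, the deleted gene, encodes a subunit of the transcription factor AP-1.

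On 0 of 7 knockout arrays, but on all 8 wild type arrays, Junb gave a signal above background. Of 8 macrophage markers, 7 had a probe, and all 7 were well above background in every group; Lyz2 was dim in knockout cells, with signals of 869 to 3793, against 345888 to 448164 in wild type cells. Markers of other cells were counted as above background in a group where 3 or more of its arrays showed them, and summed in units of the 75th percentile of each array. Of 6 B cell markers 2 were above background in each group, of 6 T and NK cell markers 1 or 2, and of 5 erythroid markers with a probe 1 or 2, with summed levels over all arrays of 0.369 to 0.939, 0.301 to 0.650 and 0.264 to 0.896. The markers Pax5 (B cells), Cd3d, Cd3g and Cd8a (T cells), Alas2 (erythroid cells) and Pdgfra (stromal cells) were above background on no array. By contrast, Cd79a and Cd79b (B cells), Cd3e (T cells), and Col1a1 and Col3a1 (stromal cells) were above background on every array. Cd247 (T and NK cells) was so on every LPS array and no untreated array, and Klf1 (erythroid cells) on at least 3 arrays of each group. Of 6 stromal markers 4 or 5 were above background, at summed levels of 4.25 to 7.78 in LPS-treated knockout cells, 2.95 to 4.33 in untreated knockout cells, against 3.21 to 6.79 (LPS) and 2.21 to 4.54 (untreated) in wild type cells. Of 7 dendritic cell markers 5 or 6 were, at 172 to 235 and 102 to 180 in LPS-treated and untreated knockout cells, against 138 to 326 and 152 to 217 in wild type cells. Of 9 neutrophil markers 5 or 6 were, and their summed level was 18.9 to 21.4 in LPS-treated knockout cells, 6.497 to 7.24 in untreated knockout cells, against 49.6 to 66.1 (LPS) and 7.32 to 12.4 (untreated) in wild type cells. The part of these other cells in the results below was not tested. Ddx3y and Eif2s3y, both on the Y chromosome, were above background on all knockout arrays and no wild type array, and Xist, made from an inactive X chromosome, showed the reverse; Kdm5d, also Y-linked, was above background in both genotypes. The knockout arrays came from 1 slide and those of wild type cells from another. Slide, sex, the disruption of Lyz2 and the deletion of Junb therefore cannot be told apart in any comparison of the genotypes. LPS and untreated arrays of a genotype shared a slide. Scatter of log2 levels about the group means was widest for untreated knockout replicate 3 (SD 0.643), untreated wild type replicate 1 (0.548) and LPS-treated wild type replicate 4 (0.526), and lay between 0.233 and 0.438 for the other 12 arrays.

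Levels below are log2 of the processed signal over the 75th percentile of the array, for the brightest probe of each gene that passed the filter, so that 0 is the 75th percentile. A change is a difference of mean log2 levels with its standard error (SE) from limma, 1 unit being 2-fold, and p-values are adjusted by Benjamini-Hochberg over all 14192 genes. A gene passed the test at an adjusted p under 0.05. Values for a group are listed by replicate number, 3 for LPS-treated knockout cells and 4 for each other group unless a spot was marked by the scanner software. All 34 tested members were above background on at least 3 arrays of every group. The arrays measure a whole culture, in which fewer cells of a type and less RNA per cell cannot be told apart.

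With LPS, most of these genes rose in both genotypes. In knockout cells 25 of 34 rose (73.5%) and 4 fell, so that 85.3% passed; over the whole array 31.1% of the genes tested rose, 28.0% fell and 59.0% passed. In wild type cells 21 of 34 rose (61.8%) and 3 fell, so that 70.6% passed; over the whole array 34.8% rose, 25.2% fell and 60.0% passed. The median change over the 34 was 0.79 in knockout cells and 0.63 in wild type cells, against 0.16 and 0.14 over all genes tested. In both genotypes 20 members rose, 12 of them at least 2-fold in each, and 3 fell. The share of all genes that met these criteria in both genotypes was not counted, so these counts only describe the members. A call with at least a 2-fold change was made for 15 members in knockout cells, where 31.5% of all genes had one, and for 16 in wild type cells, where 32.1% did. The rises depended in part on how the arrays were scaled. Quantile normalisation, which gives each array the same distribution of signals, moved the median of all genes to -0.11 in knockout cells and -0.14 in wild type cells. Under it 17 members rose and 9 fell in knockout cells, while 21.5% of all genes rose and 36.7% fell (58.1% together), with a member median of 0.40. In wild type cells 16 rose and 9 fell, while 26.2% of all genes rose and 36.5% fell (62.6% together), with a member median of 0.23. The 17 and 16 that rose under quantile normalisation had all risen under the 75th percentile scaling too.

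**Figure D1:**
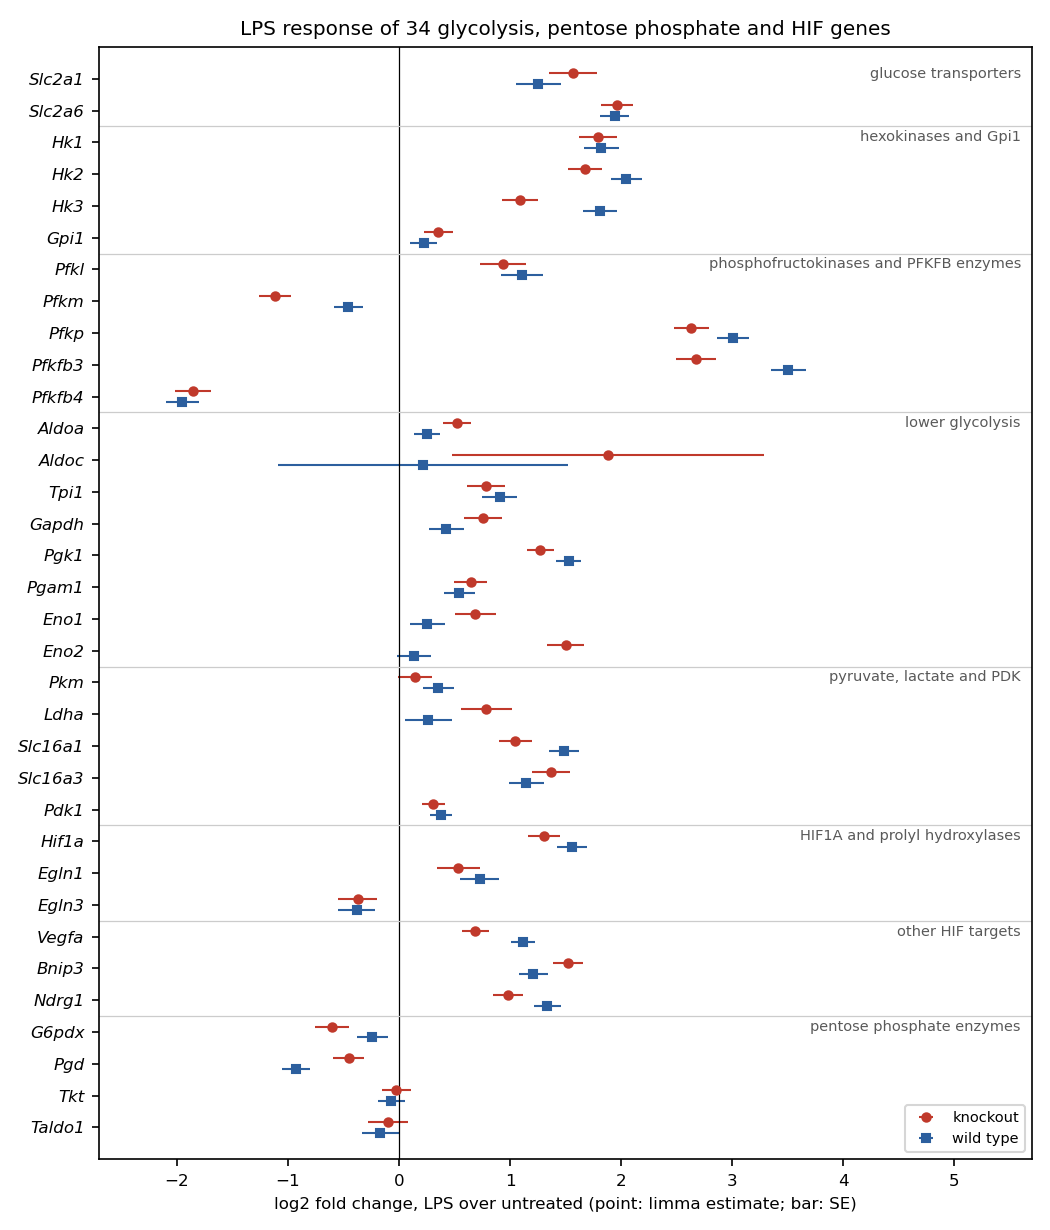
LPS response of the 34 tested genes, grouped by role. The x axis is the log2 fold change of LPS-treated over untreated cells, with points for the limma estimate and bars for its SE, circles for knockout cells (3 LPS and 4 untreated arrays) and squares for wild type cells (4 and 4). Pfkp and Pfkfb3 lie farthest to the right, with changes from 2.63 to 3.50, and Pfkfb4 farthest to the left at -1.85 and -1.95; the wide bars of Aldoc come from 1 untreated knockout array.

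Both glucose transporter genes of the set rose. Slc2a1, which encodes the widespread glucose transporter GLUT1, had log2 levels of 8.29, 8.79 and 8.26 in LPS-treated knockout cells and 7.12, 6.53, 7.005 and 6.85 in untreated knockout cells, and of 8.09, 8.18, 7.81 and 8.44 in LPS-treated wild type cells and 6.35, 7.08, 7.07 and 7.003 in untreated wild type cells. The LPS and untreated ranges were apart in each genotype, and the change was 1.57 ± 0.22 in knockout cells (adjusted p = 2.33e-05) and 1.25 ± 0.20 in wild type cells (adjusted p = 8.44e-05). Slc2a6, which encodes a transporter that sits on lysosomes in macrophages, measured 7.96, 8.22 and 7.89 with LPS against 6.14, 5.97, 6.17 and 5.96 without in knockout cells, and 7.76, 7.80, 7.66 and 7.87 against 5.51, 5.88, 5.77 and 6.17 in wild type cells. Its rise was close to 4-fold in both, 1.96 ± 0.14 in knockout and 1.94 ± 0.13 in wild type cells (adjusted p = 3.63e-08 and 1.51e-08). A dimmer probe of the same gene gave 2.21 in knockout and 2.39 in wild type cells.

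All 3 hexokinases, which trap glucose inside the cell by phosphorylation, rose in both genotypes. Hk1, the widespread form, measured 7.24, 7.33 and 7.18 in LPS-treated knockout cells, against 5.53, 5.37, 5.77 and 5.16 untreated, and 7.25, 6.96, 7.04 and 7.20 in LPS-treated wild type cells, against 4.92, 5.22, 5.44 and 5.57 untreated. Hk2, the inducible form and a HIF1A target, measured 7.29, 7.27 and 7.10 in LPS-treated knockout cells, against 5.63, 5.30, 5.84 and 5.43 untreated, and 7.10, 6.98, 6.88 and 6.92 in LPS-treated wild type cells, against 4.56, 4.96, 5.13 and 5.06 untreated. The changes of Hk1 were 1.79 ± 0.17 in knockout and 1.82 ± 0.15 in wild type cells, and those of Hk2 were 1.67 ± 0.15 and 2.05 ± 0.14, with adjusted p from 1.81e-08 to 4.74e-07. Untreated knockout cells had more Hk2 than untreated wild type cells, by 0.62 ± 0.14 (adjusted p = 0.00774), with no overlap of the arrays, whereas with LPS the genotypes differed by 0.25 ± 0.15, which did not pass (adjusted p = 0.251).

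Hk3, the hexokinase of myeloid cells, was lower in knockout cells with and without LPS. Its levels were 2.82, 2.38 and 3.07 in LPS-treated knockout cells, 1.49, 1.80, 1.66 and 1.71 in untreated knockout cells, 4.07, 4.33, 4.001 and 4.17 in LPS-treated wild type cells and 2.38, 2.35, 2.05 and 2.56 in untreated wild type cells. No knockout array reached the lowest wild type array of the same treatment. The knockout minus wild type difference was -1.39 ± 0.16 with LPS (adjusted p = 3.36e-05) and -0.67 ± 0.15 untreated (adjusted p = 0.00735). The LPS response was 1.09 ± 0.16 in knockout cells and 1.81 ± 0.15 in wild type cells, and the difference between these responses, -0.72 ± 0.22, did not pass (adjusted p = 0.0569). Several neutrophil genes ran in the same direction. Of the 9 neutrophil markers 6 were tested, and 4 (S100a8, S100a9, Camp and Cebpe) were lower in knockout cells both with LPS and untreated. Over all genes tested, 16.2% were lower with LPS and 4.66% untreated. The other tested markers, Elane and Ltf, passed in neither comparison. S100a9 was above background on no knockout array and Mpo on no array at all. The part of neutrophil genes in the Hk3 difference was not tested. Gpi1, the isomerase that follows hexokinase, rose by 0.35 ± 0.13 in knockout cells (adjusted p = 0.0307), and its wild type value of 0.22 ± 0.12 did not pass (adjusted p = 0.129). Under quantile normalisation it fell in both, at -0.29 and -0.36, so its direction depended on the scaling.

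**Figure D2:**
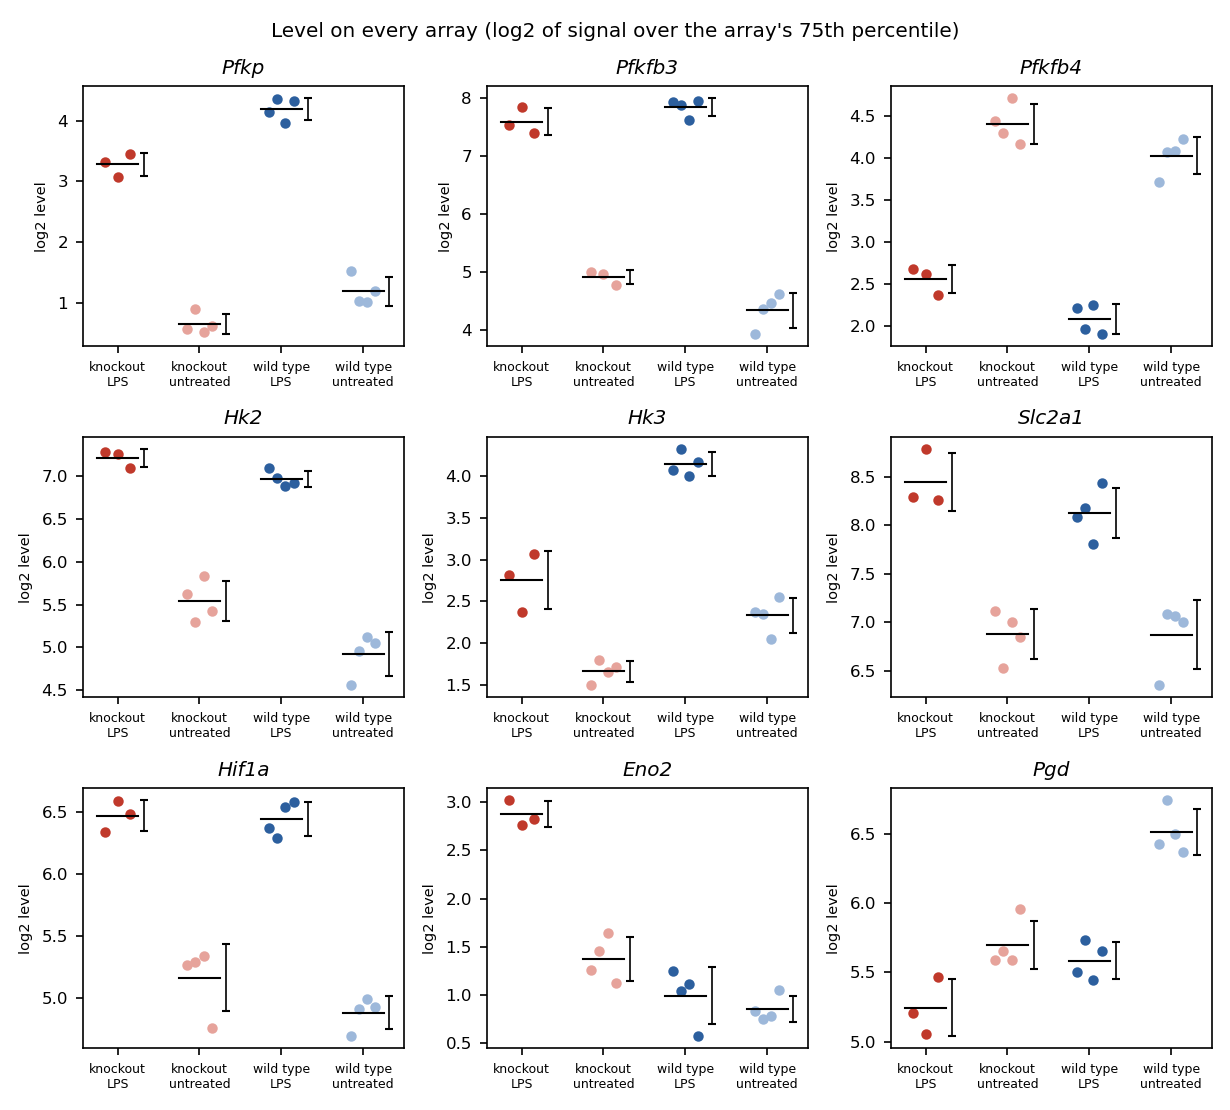
Log2 level of 9 genes on every array. Each panel shows LPS-treated and untreated knockout cells, then LPS-treated and untreated wild type cells; points are arrays, horizontal bars the group mean and vertical bars the SD, and y axes differ between panels. Pfkp and Pfkfb3 separate fully by treatment, Pfkfb4 does so in the other direction, Hk3 is lower in knockout than in wild type cells under each treatment, and Eno2 stands above the other groups only in LPS-treated knockout cells; Pfkfb3 has 3 untreated knockout points.

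The phosphofructokinases and the bifunctional PFKFB enzymes gave both the largest rises and the largest fall of the 34. Phosphofructokinase commits sugar to glycolysis, and PFKFB enzymes make or remove the fructose bisphosphate that switches it on. Pfkp, the platelet form of phosphofructokinase, measured 3.32, 3.08 and 3.44 in LPS-treated knockout cells, against 0.56, 0.90, 0.52 and 0.61 untreated, and 4.14, 4.36, 3.97 and 4.31 in LPS-treated wild type cells, against 1.51, 1.02, 1.01 and 1.20 untreated. Its change was 2.63 ± 0.15 in knockout cells (adjusted p = 3.99e-09) and 3.01 ± 0.14 in wild type cells (adjusted p = 3.6e-10). A dimmer Pfkp probe gave 1.998 in knockout and 1.88 in wild type cells. Knockout cells had less Pfkp by the brighter probe, at -0.92 ± 0.15 with LPS (adjusted p = 0.000622) and -0.54 ± 0.14 untreated (adjusted p = 0.0182), but the dimmer probe read 0.02 and -0.10, which did not pass.

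Pfkl, the liver form, rose less. It measured 3.62, 3.36 and 3.87 in LPS-treated knockout cells, against 2.50, 2.98, 2.55 and 2.70 untreated, and 4.001, 4.72, 3.999 and 4.07 in LPS-treated wild type cells, against 3.25, 2.91, 2.83 and 3.38 untreated, changes of 0.94 ± 0.21 and 1.11 ± 0.19 (adjusted p = 0.0013 and 0.000161). Pfkm, the muscle form, fell, to -1.11, -1.36 and -1.07 in LPS-treated knockout cells, against -0.19, 0.06, -0.03 and -0.08 untreated, and with LPS to -0.56, -0.46, -0.55 and -0.56 in wild type cells, against -0.03, -0.28, -0.32 and 0.31 untreated. The fall was -1.12 ± 0.14 in knockout cells and -0.46 ± 0.13 in wild type cells (adjusted p = 1.15e-05 and 0.00856). Within an array, the log2 ratio of Pfkp to Pfkl was thus higher with LPS, by 1.70 in knockout and 1.90 in wild type cells, and that of Pfkm to Pfkl lower, by -2.05 and -1.56, with no overlap between LPS and untreated arrays. A ratio within an array does not depend on the scaling by the 75th percentile.

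Pfkfb3, which encodes the PFKFB enzyme with the strongest preference for making the activator, rose most in wild type cells. Its levels were 7.54, 7.85 and 7.41 in LPS-treated knockout cells, 5.01, 4.97 and 4.79 on the 3 untreated knockout arrays with a value, 7.94, 7.88, 7.62 and 7.96 in LPS-treated wild type cells and 3.93, 4.36, 4.47 and 4.62 in untreated wild type cells. The change was 2.68 ± 0.18 in knockout cells (adjusted p = 3.69e-08), more than 6-fold, and 3.50 ± 0.16 in wild type cells (adjusted p = 5.48e-10), more than 11-fold. Pfkfb4 did the opposite and fell to 2.68, 2.62 and 2.36 in LPS-treated knockout cells, against 4.44, 4.30, 4.72 and 4.17 untreated, and with LPS to 2.22, 1.96, 2.25 and 1.90 in wild type cells, against 3.72, 4.08, 4.09 and 4.24 untreated. Its change was -1.85 ± 0.16 in knockout and -1.95 ± 0.15 in wild type cells (adjusted p = 2.23e-07 and 5.09e-08), so the log2 ratio of Pfkfb4 to Pfkfb3 was lower with LPS by -4.43 and -5.46. All of these directions held under quantile normalisation, where Pfkp changed by 2.47 and 2.67, Pfkfb3 by 2.07 and 2.91 and Pfkfb4 by -2.18 and -2.37 in knockout and wild type cells.

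The sequence just before the start of these genes is shown because HIF1A binds a core spelled ACGTG or GCGTG, and AP-1 binds TGANTCA. Sequences are from RefSeq for build GRCm38.p6, the 250 bases before the annotated start read on the strand of the gene, and capitals mark every match on either strand to ACGTG, to its variant GCGTG or to the AP-1 motif TGANTCA. The 4 windows are those of the largest rises, the largest fall, and Eno2, whose LPS response differed between the genotypes. They lie at chr13:6648772-6649021 (minus strand, Pfkp), chr2:11502091-11502340 (minus strand, 1 of 2 annotated Pfkfb3 starts), chr9:108991652-108991901 (plus strand, Pfkfb4) and chr6:124769674-124769923 (minus strand, Eno2).
Pfkp: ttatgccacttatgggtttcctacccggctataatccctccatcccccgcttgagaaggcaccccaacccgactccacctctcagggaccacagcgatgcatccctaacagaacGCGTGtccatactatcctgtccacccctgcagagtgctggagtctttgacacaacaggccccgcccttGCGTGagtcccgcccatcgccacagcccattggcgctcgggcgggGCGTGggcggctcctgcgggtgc
Pfkfb3: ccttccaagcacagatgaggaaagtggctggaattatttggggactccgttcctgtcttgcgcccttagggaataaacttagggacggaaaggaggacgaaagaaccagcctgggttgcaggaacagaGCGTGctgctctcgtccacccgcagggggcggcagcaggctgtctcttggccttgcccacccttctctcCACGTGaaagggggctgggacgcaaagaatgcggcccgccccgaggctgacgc
Pfkfb4: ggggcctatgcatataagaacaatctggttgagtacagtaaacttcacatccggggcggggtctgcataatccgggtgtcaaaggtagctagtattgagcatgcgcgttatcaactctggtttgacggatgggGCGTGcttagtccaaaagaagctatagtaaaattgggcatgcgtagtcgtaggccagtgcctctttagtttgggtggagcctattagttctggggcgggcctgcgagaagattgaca
Eno2: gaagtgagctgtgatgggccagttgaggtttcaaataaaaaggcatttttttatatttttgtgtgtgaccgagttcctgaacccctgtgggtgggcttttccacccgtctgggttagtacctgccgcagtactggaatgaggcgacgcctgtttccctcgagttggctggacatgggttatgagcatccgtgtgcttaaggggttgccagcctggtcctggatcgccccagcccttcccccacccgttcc
Pfkp holds the core at 3 places, all GCGTG. The Pfkfb3 window shown holds it at 3 places, of which 2 overlap in the palindrome CACGTG, which reads ACGTG on each strand. The window of the other Pfkfb3 start, not shown, holds 1. Pfkfb4, which fell, holds 1, and Eno2 holds none. Windows were found for 34 of the 35 members, all except Ndrg1. ACGTG or GCGTG occurred in at least 1 window of 31 of these 34 genes, and in 39 of their 49 windows (79.6%), against 38.6% of the 32851 windows in the table; Eno2, Gpi1 and Tpi1 had none. By itself ACGTG was in 20 of 49 windows, against 16.6% of all, and GCGTG in 27 of 49, against 28.2% of all. TGANTCA was in 1 of 49, a window of Aldoa, against 6.75% of all. These are matches of letters only; the arrays measured no binding, base composition was not matched, and genes without a match may hold the letters elsewhere.

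In lower glycolysis, from aldolase to enolase, the rises were smaller, except for Pgk1 and, in knockout cells, Eno2. Pgk1, the kinase that yields the pathway's first ATP, measured 7.16, 6.99 and 7.28 in LPS-treated knockout cells, against 5.92, 5.89, 5.88 and 5.81 untreated, and 7.71, 7.84, 7.47 and 7.71 in LPS-treated wild type cells, against 5.99, 6.06, 6.24 and 6.32 untreated. All LPS arrays lay above all untreated arrays, and the change was 1.27 ± 0.12 in knockout and 1.53 ± 0.11 in wild type cells (adjusted p = 4.91e-07 and 2.82e-08). LPS-treated knockout cells had less Pgk1 than LPS-treated wild type cells, a difference of -0.53 ± 0.12 (adjusted p = 0.00427). Tpi1, the triose isomerase, rose by 0.79 ± 0.17 and 0.91 ± 0.16, and Pgam1, the mutase after Pgk1, by 0.65 ± 0.15 and 0.54 ± 0.14, in knockout and wild type cells. Gapdh, the dehydrogenase often used as a reference gene, rose by 0.76 ± 0.17 in knockout cells (adjusted p = 0.0015) and 0.43 ± 0.16 in wild type cells (adjusted p = 0.0296). Aldoa, the main aldolase, and Eno1, the main enolase, rose in knockout cells by 0.52 ± 0.13 and 0.69 ± 0.18 (adjusted p = 0.00285 and 0.00537), and their wild type changes, 0.25 ± 0.12 and 0.25 ± 0.16, did not pass (adjusted p = 0.0791 and 0.187). For neither gene did the LPS responses of the genotypes differ by the test (adjusted p = 0.366 and 0.287). Under quantile normalisation none of the calls for Tpi1, Gapdh, Pgam1, Aldoa and Eno1 held, and the value for Aldoa in knockout cells was -0.09.

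Aldoc, the aldolase of brain, could not be judged. It measured 4.74, 4.47 and 4.49 in LPS-treated knockout cells, against 4.67, 4.58, -3.14 and 4.64 untreated, and 4.88, 4.95, 4.87 and 4.55 in LPS-treated wild type cells, against 4.22, 4.66, 4.64 and 4.87 untreated. Untreated knockout replicate 3 stood far below all other arrays, and with it the change in knockout cells was 1.88 ± 1.41 (adjusted p = 0.265). Without that array the change was -0.06.

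Eno2, the enolase of neurons and a HIF1A target, was the member with the smallest p for a difference in LPS response between the genotypes. It measured 3.02, 2.77 and 2.83 in LPS-treated knockout cells and 1.26, 1.45, 1.65 and 1.13 in untreated knockout cells, against 1.25, 1.04, 1.12 and 0.57 in LPS-treated wild type cells and 0.84, 0.75, 0.79 and 1.05 in untreated wild type cells. The 3 LPS-treated knockout arrays stood above all 12 others. The response was 1.5001 ± 0.17 in knockout cells (adjusted p = 2.76e-06) and 0.14 ± 0.15 in wild type cells (adjusted p = 0.471), and the difference between them was 1.36 ± 0.23 (adjusted p = 0.00184). With LPS, knockout cells had 1.88 ± 0.17 more than wild type cells (adjusted p = 2.51e-06), which is 3.68-fold. Within an array the log2 ratio of Eno2 to Eno1 was higher with LPS by 0.90 in knockout cells, without overlap, and differed by -0.12 in wild type cells, with overlap.

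At the end of the pathway, the lactate carriers rose clearly, while the values for the enzymes before them were smaller or differed between probes. Slc16a3, the lactate exporter MCT4, measured 8.05, 8.39 and 8.08 in LPS-treated knockout cells, against 6.97, 6.63, 7.04 and 6.60 untreated, and 7.98, 7.91, 7.65 and 8.06 in LPS-treated wild type cells, against 6.41, 6.68, 6.84 and 7.08 untreated. Its change was 1.37 ± 0.17 in knockout and 1.15 ± 0.16 in wild type cells (adjusted p = 9.86e-06 and 2.37e-05). Slc16a1, the carrier MCT1, was near the floor of -4.50, with -2.59, -2.94 and -2.85 in LPS-treated knockout cells, against -3.93, -3.70, -3.64 and -4.10 untreated, and -2.71, -2.80, -2.89 and -3.08 in LPS-treated wild type cells, against -4.28, -4.50, -4.50 and -4.14 untreated. It rose by 1.05 ± 0.15 and 1.49 ± 0.14 (adjusted p = 2.76e-05 and 3.39e-07), but 2 untreated wild type arrays were at the floor, so the wild type size is uncertain. Pkm, the pyruvate kinase of most cells, read 0.14 ± 0.15 in knockout cells, which did not pass (adjusted p = 0.429), and rose by 0.35 ± 0.14 in wild type cells (adjusted p = 0.0435). Under quantile normalisation Pkm fell, at -0.47 in knockout and -0.42 in wild type cells, the opposite direction. Pdk1, which blocks pyruvate oxidation and is a HIF1A target, rose by 0.31 ± 0.10 and 0.38 ± 0.10 in knockout and wild type cells (adjusted p = 0.0201 and 0.0036); under quantile normalisation the wild type change, 0.22, did not pass (adjusted p = 0.0569).

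Ldha, the lactate dehydrogenase subunit that favours lactate, measured 8.64, 9.07 and 8.33 in LPS-treated knockout cells, against 8.35, 7.42, 7.94 and 7.86 untreated, and 8.55, 8.48, 8.17 and 8.80 in LPS-treated wild type cells, against 7.92, 8.39, 8.40 and 8.25 untreated. The arrays overlapped between the treatments in both genotypes, and the change was 0.79 ± 0.23 in knockout cells (adjusted p = 0.00848) and 0.26 ± 0.21 in wild type cells (adjusted p = 0.307). Another pair of Ldha probes read larger rises, of 1.06 and 1.12 in knockout cells and 1.37 and 1.14 in wild type cells. The signal of the probe that represents Ldha reached 321375, where the brightest spot of an array lay between 395520 and 663306. Gapdh, whose brightest probe reached 339342, had 7 probes, with changes of 0.72 to 1.05 in knockout cells and 0.43 to 1.15 in wild type cells; the value of 0.43 is that of the brightest. When all probes of a gene were averaged, the median change over the 34 genes was 0.89 in knockout and 0.86 in wild type cells, against 0.14 over all genes in each. Under quantile normalisation the Ldha change in knockout cells, 0.23, did not pass (adjusted p = 0.0920).

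**Figure D3:**
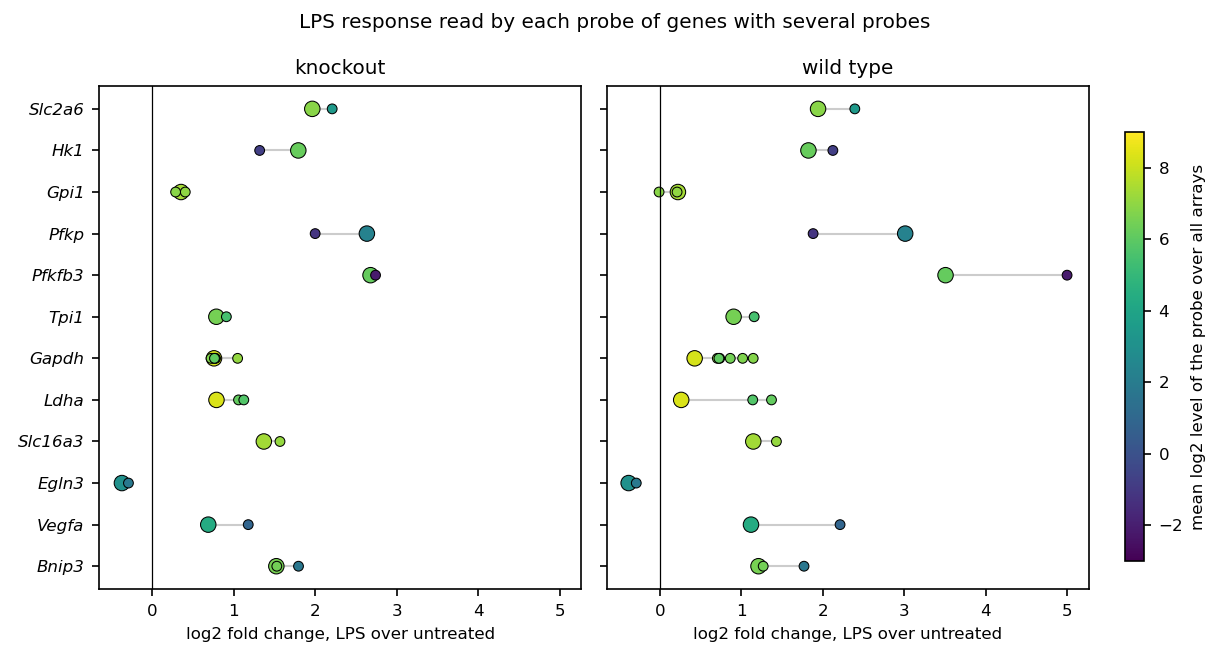
LPS response read by each probe of the 12 genes with several probes above background, in knockout (left) and wild type cells (right). The x axis is the log2 fold change of LPS-treated over untreated cells, large points are the probe that represents the gene elsewhere, and colour is the mean log2 level of the probe. The probes agree in direction for each gene except Gpi1 in wild type cells, and the probe that represents Ldha reads 0.26 in wild type cells where the others read 1.14 and 1.37; the second Pfkfb3 probe was above background on no untreated wild type array, so its wild type value there depends on the floor.

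Of the genes that control HIF, Hif1a itself rose. It measured 6.34, 6.59 and 6.48 in LPS-treated knockout cells, against 5.27, 5.29, 5.34 and 4.76 untreated, and 6.37, 6.29, 6.54 and 6.58 in LPS-treated wild type cells, against 4.69, 4.92, 4.996 and 4.93 untreated. The change was 1.30 ± 0.15 in knockout and 1.56 ± 0.14 in wild type cells (adjusted p = 3e-06 and 1.89e-07), and with LPS the genotypes differed by 0.03 ± 0.15 (adjusted p = 0.926). Egln1, the prolyl hydroxylase that sets HIF1A in normal oxygen, rose by 0.53 ± 0.19 in knockout cells (adjusted p = 0.0278) and 0.73 ± 0.18 in wild type cells (adjusted p = 0.00287). Egln3, a hydroxylase that HIF itself induces, read -0.37 ± 0.18 in knockout and -0.38 ± 0.16 in wild type cells, which did not pass (adjusted p = 0.0872 and 0.0593). Under quantile normalisation it fell, at -0.65 in knockout and -0.75 in wild type cells. Within an array the log2 ratio of Egln3 to Egln1 was lower with LPS by -0.91 in knockout and -1.11 in wild type cells, without overlap.

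The other HIF targets among the members rose in both genotypes. Bnip3, which promotes the removal of mitochondria, measured 7.22, 7.25 and 7.16 in LPS-treated knockout cells, against 5.80, 5.57, 5.87 and 5.53 untreated, and 7.39, 7.36, 7.23 and 7.30 in LPS-treated wild type cells, against 5.77, 6.09, 6.18 and 6.39 untreated. Vegfa, the vascular growth factor, measured 4.70, 4.62 and 4.82 in LPS-treated knockout cells, against 3.83, 4.20, 4.10 and 3.98 untreated, and 4.78, 5.13, 4.91 and 4.92 in LPS-treated wild type cells, against 3.77, 3.68, 3.94 and 3.87 untreated. Ndrg1, a stress gene induced by low oxygen, measured 2.08, 1.76 and 2.11 in LPS-treated knockout cells, against 0.97, 1.07, 1.04 and 0.93 untreated, and 2.63, 2.86, 2.61 and 2.43 in LPS-treated wild type cells, against 1.27, 1.19, 1.17 and 1.56 untreated. For each of the 3, all LPS arrays lay above all untreated arrays of the genotype. The changes in knockout and wild type cells were 1.52 ± 0.14 and 1.21 ± 0.13 for Bnip3, 0.69 ± 0.12 and 1.12 ± 0.11 for Vegfa, and 0.98 ± 0.13 and 1.34 ± 0.12 for Ndrg1, with adjusted p of 0.000198 or less. A dimmer Vegfa probe gave 1.18 in knockout and 2.21 in wild type cells, and in the fit over all probes its responses differed between the genotypes by -1.03 (adjusted p = 0.0298), whereas the brighter probe gave -0.43 ± 0.16 (adjusted p = 0.113). Under quantile normalisation the Vegfa change in knockout cells, 0.22, did not pass.

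The 4 pentose phosphate enzymes did not rise. Pgd, phosphogluconate dehydrogenase, fell in both genotypes, to 5.21, 5.06 and 5.47 in LPS-treated knockout cells, against 5.59, 5.66, 5.59 and 5.96 untreated, and with LPS to 5.50, 5.74, 5.45 and 5.65 in wild type cells, against 6.43, 6.74, 6.498 and 6.37 untreated. The highest of these levels were those of untreated wild type cells. The change was -0.45 ± 0.14 in knockout cells (adjusted p = 0.0122) and -0.93 ± 0.13 in wild type cells (adjusted p = 2.29e-05), and untreated knockout cells had less Pgd than untreated wild type cells, a difference of -0.81 ± 0.13 (adjusted p = 0.000578). G6pdx, the X-linked dehydrogenase that opens the pathway, fell in knockout cells, at -0.61 ± 0.15 (adjusted p = 0.00355) and read -0.24 ± 0.14 in wild type cells, which did not pass (adjusted p = 0.162). The sugar-shuffling enzymes Tkt and Taldo1 read -0.02 ± 0.13 and -0.10 ± 0.18 in knockout cells and -0.07 ± 0.12 and -0.17 ± 0.17 in wild type cells, and none passed (adjusted p from 0.41 to 0.888). Under quantile normalisation all 4 fell in both genotypes, at -0.66 to -1.20 in knockout cells and -0.75 to -1.60 in wild type cells.

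**Figure D4:**
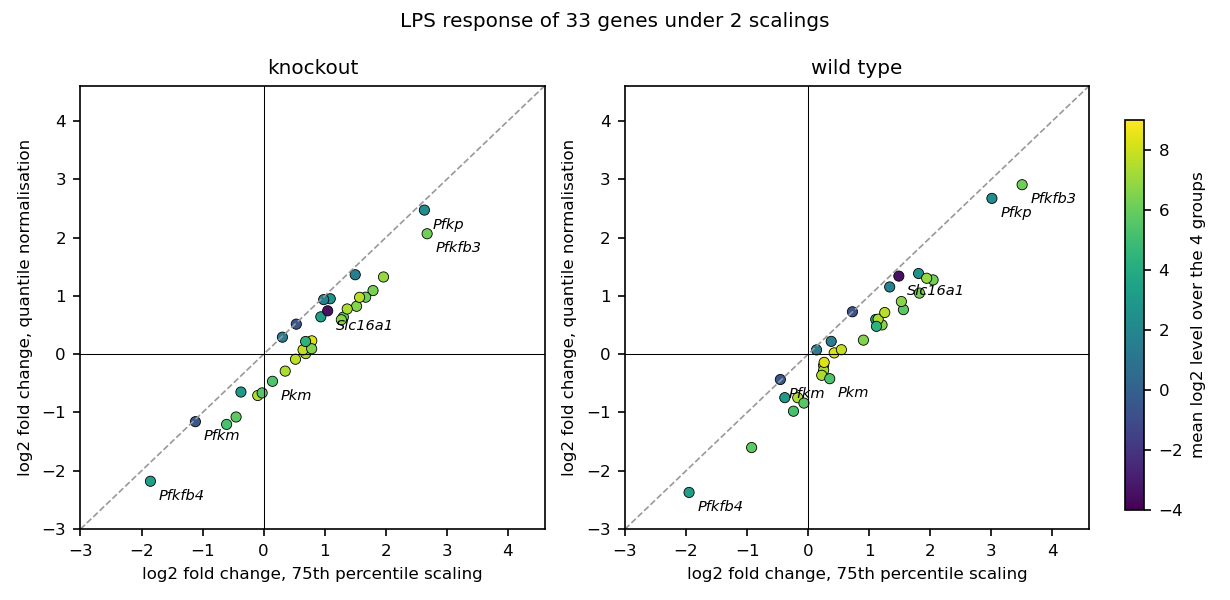
LPS response of 33 members (Aldoc left out) after scaling by the 75th percentile (x axis) and after quantile normalisation (y axis), both as log2 fold change of LPS-treated over untreated cells, in knockout (left) and wild type cells (right). Each point is a gene, coloured by its mean log2 level over the 4 groups, and the dashed line marks equal values. Points lie below the line almost throughout, so that small rises such as that of Pkm turn into falls, while Pfkp, Pfkfb3 and Pfkfb4 keep their direction.

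Some smaller LPS calls rested on single arrays. Of the 29 calls in knockout cells, 24 held without each of the 7 knockout arrays in turn. The call for Gpi1 was lost without untreated replicate 2 or 4 or LPS replicate 2 or 3, that for Egln1 without untreated replicate 4 or LPS replicate 2 or 4, that for Pdk1 without LPS replicate 2 or 4, and those for Ldha and Pgd without LPS replicate 3. Of the 24 calls in wild type cells, 22 held without each of the 8 wild type arrays; Gapdh was lost without untreated replicate 1 or 4 or LPS replicate 2 or 4, and Pkm without untreated replicate 1, 2 or 3 or LPS replicate 2 or 4.

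Whether the LPS response depended on the genotype was tested by the difference between the responses, knockout minus wild type, in which a constant offset between the slides cancels. Of the 34 members 3 passed (8.82%), where 10.4% of all genes did (2.50% higher and 7.87% lower), so the share is near that of the arrays at large. Eno2 was higher, as above. Pfkfb3 was lower, at -0.83 ± 0.24 (adjusted p = 0.0449), as was Pfkm at -0.66 ± 0.19 (adjusted p = 0.046). The dimmer Pfkfb3 probe gave a larger difference in the fit over all probes, -2.26 (adjusted p = 0.000262). Its untreated wild type level lay at the floor, so the size of that difference is uncertain. The fits below are those of the brighter probe. The Eno2 call held without each of the 15 arrays in turn, with adjusted p from 0.00144 to 0.00721. That of Pfkfb3 held in 5 of 15 such fits, those without untreated knockout replicate 3, LPS-treated knockout replicate 3, untreated wild type replicate 1 or 4, or LPS-treated wild type replicate 3, with adjusted p from 0.0233 to 0.0983. The call for Pfkm held only without untreated wild type replicate 4, with adjusted p from 0.00575 to 0.135 over the 15.

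Between the genotypes with LPS, 2 of 34 members were higher in knockout cells and 9 lower, 32.4% in all, where 29.8% of all genes passed (13.6% higher and 16.2% lower). With all probes of a gene averaged, 2 members were higher and 12 lower (1818 and 2457 of all genes). Dimmer probes of some uncalled members passed as lower in the fit over all probes, such as Ldha (-0.56 and -0.55), Slc2a6 (-0.63) and Pfkfb3 (-1.44). Those of Gpi1, Slc16a3 and Bnip3 did not pass. The balance of directions depended on the scaling: 5 members were higher and 8 lower under quantile normalisation (2143 and 2230 of all genes), 6 and 9 with normexp background correction (2262 and 2251), 3 and 7 with the percentile taken over probes above background on all arrays (2832 and 2227), and 0 and 7 of 26 in the deposited table (1055 and 1533). Eno2 and Pfkfb4 were higher, Pfkfb4 by 0.47 ± 0.16 (adjusted p = 0.0395). With the replicate number as a block, the Pfkfb4 call was lost (0.46, adjusted p = 0.0622). Pkm was then lower in knockout cells, at -0.45 (adjusted p = 0.0411), against -0.42 ± 0.15 without the block (adjusted p = 0.0541). Whether same-numbered LPS arrays are true pairs is not known. Besides Hk3, Pfkp and Pgk1, the lower ones included Pfkm at -0.65 ± 0.14 (adjusted p = 0.00404). The differences were -0.65 ± 0.13 for Ndrg1, -0.72 ± 0.19 for Egln1, -0.58 ± 0.21 for Pfkl, -0.54 ± 0.17 for Tpi1 and for Pdk1 -0.37 ± 0.10 (adjusted p from 0.00254 to 0.0471). Of these 11 calls, 6 held without each LPS array in turn (Hk3, Pfkm, Pfkp, Pgk1, Eno2 and Ndrg1); those of Pdk1, Egln1, Pfkl, Tpi1 and Pfkfb4 were lost without LPS-treated knockout replicate 3, and the last 3 also without LPS-treated knockout replicate 2 or LPS-treated wild type replicate 2, or, for Pfkl and Pfkfb4, replicate 4.

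Untreated, 4 members were higher in knockout cells and 6 lower, 29.4% in all, where 18.4% of all genes passed (13.7% higher and 4.66% lower). Under quantile normalisation 3 were higher and 9 lower (2351 and 1029 of all genes), with normexp 3 and 2 (1747 and 620), with the other percentile 4 and 12 (2153 and 1274), and 1 and 1 of 26 in the deposited table (840 and 324). Besides Hk2, the higher ones were Pfkfb3 by 0.57 ± 0.17, Eno2 by 0.52 ± 0.15 and Slc16a1 by 0.51 ± 0.14 (adjusted p from 0.0179 to 0.0323). For Slc16a1, some untreated wild type arrays were at the floor, so the size of its difference is uncertain. The Slc16a1 difference did not pass under quantile normalisation (adjusted p = 0.0713), with normexp (0.269) or in the deposited table (0.343). Besides Hk3, Pfkp and Pgd, the lower ones were Eno1 at -0.55 ± 0.17, Bnip3 at -0.42 ± 0.13 and Pdk1 at -0.30 ± 0.10 (adjusted p from 0.0352 to 0.0436). Of the 10, those of Hk2, Hk3 and Pgd held without each untreated array in turn; the other 7 were lost in some of these fits, and leaving out any of the 8 untreated arrays cost at least 1 call. With normexp, the differences of Hk3 and Pgd, at -0.45 and -0.37, did not pass (adjusted p = 0.0732 and 0.111), nor did they in the deposited table, at -0.42 and -2.44 (adjusted p = 0.157 and 0.318). The genotype comparisons share their arrays with the LPS comparisons.

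The neighbours of these genes in the same pathways did not move as one. Of 27 further genes of glycolysis and gluconeogenesis, 20 were tested; 13 fell in knockout cells, where 28.0% of all genes fell, and wild type cells showed 13 falls and 2 rises, against 25.2% and 34.8% of all genes. The largest falls were those of Bpgm, which diverts a glycolytic intermediate, at -3.65 ± 0.14 in knockout and -3.10 ± 0.13 in wild type cells, and Pfkfb2, another PFKFB enzyme, at -3.33 ± 0.14 and -2.98 ± 0.13. Slc2a3, the transporter GLUT3, fell, with changes of -1.74 ± 0.16 and -2.31 ± 0.15, opposite to Slc2a1 and Slc2a6, and Slc16a7, a further monocarboxylate carrier, read -0.51 ± 0.71 in knockout cells, which did not pass (adjusted p = 0.558), and fell, at -2.01 ± 0.66, in wild type cells. The difference between the Slc16a7 responses did not pass (adjusted p = 0.367). Of the pentose phosphate genes outside the 4 above, 9 of 11 were tested, and 6 fell and 1 rose in each genotype, where 28.0% (knockout) and 25.2% (wild type) of all genes fell. Shpk, the kinase of sedoheptulose, was above background on no LPS array and at least 4.97-fold lower in knockout and at least 3.91-fold lower in wild type cells, where the floor stands in for lower LPS levels, as it does for the other bounds below.

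Of 12 genes around pyruvate dehydrogenase, all tested, 3 rose and 4 fell in knockout cells, and 4 rose and 3 fell in wild type cells. These shares are near those of all genes, of which 31.1% rose and 28.0% fell in knockout cells and 34.8% rose and 25.2% fell in wild type cells. Pdk2, a kinase of the same family as Pdk1 and Pdk4, was above background on no LPS array, and was at least 12.4-fold lower in knockout and at least 9.12-fold lower in wild type cells. Pdk3 read -0.02 ± 0.13 in knockout cells and rose by 1.01 ± 0.12 in wild type cells, a difference of -1.03 ± 0.18 (adjusted p = 0.00262). Among 15 genes of glycogen turnover, 14 were tested; 3 rose and 8 fell in knockout cells, and 2 rose and 7 fell in wild type cells, against the same shares of all genes. Ppp1r3b, which brings a phosphatase to glycogen, rose by 2.63 ± 0.55 and 3.47 ± 0.51, and the phosphorylase Pygb fell, with changes of -2.07 ± 0.21 and -1.19 ± 0.20.

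Most further HIF targets rose. Of 29, 26 were tested; 18 rose and 4 fell in knockout cells, where 31.1% of all genes rose and 28.0% fell, and 19 rose and 4 fell in wild type cells, where 34.8% rose and 25.2% fell. Adm, the vasodilator adrenomedullin, rose by 7.33 ± 0.17 in knockout and 6.36 ± 0.16 in wild type cells, and Hilpda, a lipid droplet protein, by 3.80 ± 0.14 and 5.23 ± 0.13. Ddit4, an inhibitor of mTORC1, rose by 2.61 ± 0.18 and 4.94 ± 0.16, a difference of -2.33 ± 0.24 (adjusted p = 4.64e-05). Ak4, an adenylate kinase of mitochondria, rose by 3.33 ± 0.21 and 2.64 ± 0.18. Edn1, the vasoconstrictor endothelin, was not well above background on any untreated array and was at least 83.4-fold higher with LPS in knockout and at least 445-fold higher in wild type cells. Ero1a, an oxidase of the endoplasmic reticulum, and the clock repressor Bhlhe40 rose by 2.33 ± 0.18 and 2.14 ± 0.15 in knockout cells and by 1.79 ± 0.17 and 1.64 ± 0.14 in wild type cells. The chemokine receptor Cxcr4 fell, with changes of -4.77 ± 0.12 and -5.67 ± 0.11. Comparing the LPS responses of the genotypes, 2 of the 26 were higher and 5 lower in knockout cells (10.4% of all genes passed). HIF regulators outside the members gave 2 rises and 2 falls in each genotype among 9 tested of 10, shares below those of all genes; Egln2, the prolyl hydroxylase of the same family as Egln1, rose by 0.66 ± 0.15 and 0.63 ± 0.12. Hif3a, an inhibitory HIF subunit, read -0.89 ± 0.59 in knockout cells, which did not pass (adjusted p = 0.209), and fell, at -2.32 ± 0.55, in wild type cells; the difference between the responses did not pass (adjusted p = 0.297). Epas1, which encodes HIF2A, fell, with changes of -0.98 ± 0.20 and -0.61 ± 0.19.

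**Figure D5:**
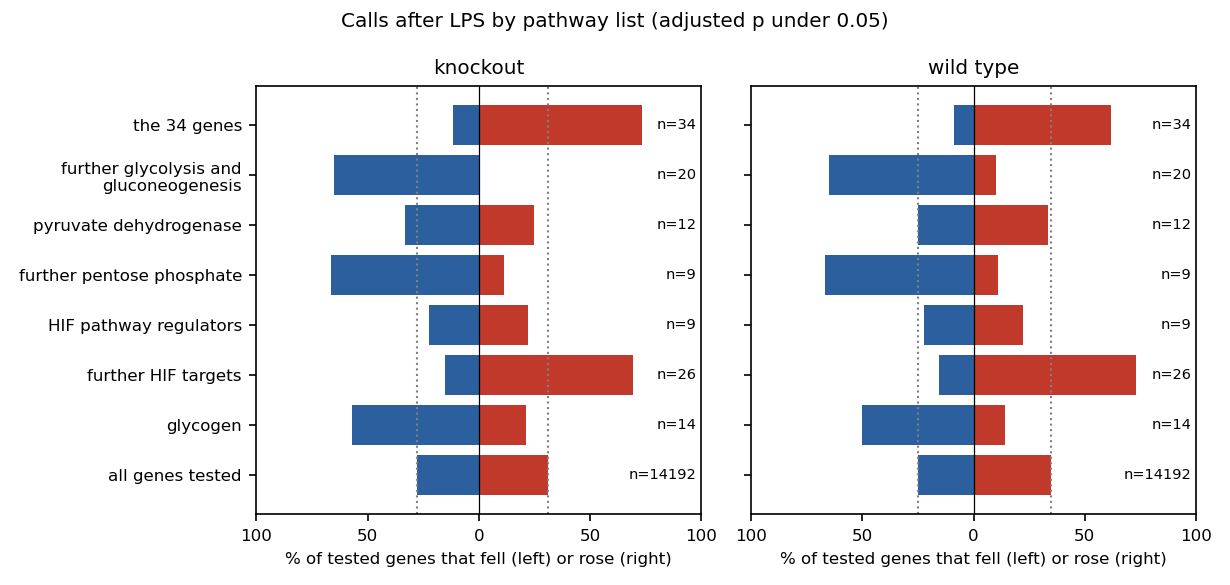
Share of tested genes that rose (right of 0) or fell (left of 0) after LPS, in percent, in knockout (left panel) and wild type cells (right panel), for the 34 members, 6 lists of further genes and all 14192 genes tested. Dotted lines carry the shares over all genes upward for comparison, and n is the number tested. The members and the further HIF targets reach well past the right dotted line, whereas the further glycolysis and pentose phosphate genes lie mostly on the left. Members and lists were chosen with earlier results of these data known.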

How the data were processed

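Total RNA of 15 cultures was amplified to Cy3-labelled aminoallyl-aRNA and hybridised to single-colour Agilent arrays, per the labels' protocols. The deposited scanner files hold a processed intensity for each spot, background-corrected by Agilent Feature Extraction 10.7.3.1, per the file headers, which give mm9 as the design build. The authors' value table, as deposited, holds log2 values with medians of 6.25 to 6.27 per array; its further processing by the authors is not given in the sources used here, and it served as an alternative.

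Intensities were divided by the 75th percentile of each array (476 to 1481), floored at 0.0442 of it (-4.50 on the log2 scale), and taken to log2. Control spots were left out, 4827 spots with outlier flags were set missing, and no spot was saturated. Of 55681 probes, 26582 had 1 gene symbol through their RefSeq accession, and 29099 were left unnamed. A probe was kept if 3 or more arrays of some group showed it well above background, and the brightest represented each of 14192 genes. On each array 50.8% to 62.9% of spots were well above background, and the number of arrays limits the precision. limma 3.58.1 in R 4.3.3 fitted 4 group means over 15 arrays, with Benjamini-Hochberg adjustment at 0.05; scripts also used data.table, version 1.17.8, Python 3.11.15, pandas 2.3.3 and matplotlib 3.10.9. The fit was tested on simulated data.

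Groups came from the labels. Same-numbered LPS arrays of the genotypes deviated together (correlations of 0.137 to 0.446 over 3 pairs) and were taken as pairs on that ground alone. Each other pairing of groups held at least 1 correlation under 0.1 (all pairs -0.54 to 0.56). Single correlations in those were as high, such as 0.352 and 0.280 between LPS-treated wild type and untreated knockout arrays. The pairing is therefore uncertain. Alternatives were quantile normalisation, normexp with an offset of 50 (on the median signal, since no mean signal column was used), the deposited table, another percentile set, filters, floors and probe rules, array weights, a replicate block, and leaving out arrays. Members and lists were chosen with earlier results of these data known. Members got values on every array where the LPS response reached 1 on the log2 scale and passed, or where the responses differed between genotypes; Aldoc, Ldha and Pgd, outside that rule, were added after their values were seen. Further list genes were named where a change of at least 2 passed (some are not reported here), or where their role helps to read a member; Pdk3, Egln2 and Epas1 are named on the second ground.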

Additional observations from a re-analysis of the deposited data

Results flagged for a closer look

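The LPS response differed between the genotypes by the interaction test for 3 genes, with values, knockout minus wild type, of 1.36 for Eno2, -0.83 for Pfkfb3 and -0.66 for Pfkm on the log2 scale. In 7 of 99 groups of 4 arrays, 1 array stood apart from the others by Dixon's criterion, which chance alone meets in about 1 in 20 groups. On untreated wild type replicate 1, Slc2a1 was at 6.35 where the others were at 7.003 to 7.08, Pgam1 at 7.31 where they were at 7.61 to 7.64, and Taldo1 at 6.9997 where they were at 7.51 to 7.58. On LPS-treated wild type replicate 2, Pfkl was at 4.72 where the others were at 4.00 to 4.07, and Pfkm at -0.46 where they were at -0.56 to -0.55. Aldoc was at -3.14 on untreated knockout replicate 3, where the others were at 4.58 to 4.67. Hif1a was at 4.76 on untreated knockout replicate 4, where the others were at 5.27 to 5.34.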

How the results depend on the processing

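The median LPS change of the 34 members, 0.79 in knockout and 0.63 in wild type cells, was 0.40 and 0.23 after quantile normalisation, 0.34 and 0.24 with normexp, 0.33 and 0.28 in the deposited table, and 0.52 and 0.21 with the percentile taken over probes above background on all arrays; averaging all probes gave 0.86 in wild type cells. The deposited table tested 26 members and called 17 in knockout cells, where it called 5836 of 11894 genes. It called 0 members in the difference of the LPS responses by limma (4 at an unadjusted p under 0.05), 2 between the untreated genotypes and 7 with LPS, among 527, 1164 and 2588 genes. In the difference, 3 members passed (1472 genes), against 1 with the lowest floor (1166 genes) and 8 with array weights (4402 genes). It was 1 (2055 genes) without the 3 most deviant arrays, a setting chosen after seeing the data. Between the untreated genotypes 10 passed (2607 genes), against 5 with normexp (2367 genes) and 16 with the other percentile (3427 genes). Array weights gave 17 (5447 genes), and leaving out those 3 arrays gave 6 (2267 genes). Leaving out 1 array at a time gave 1 to 4 members and 907 to 1961 genes in the difference. It gave 4 to 10 members and 1893 to 3067 genes in the untreated comparison, and 6 to 12 members and 2760 to 4223 genes with LPS.

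Directions reversed for some small changes. Gpi1 read -0.29 in knockout and -0.36 in wild type cells after quantile normalisation, -0.32 and -0.45 in the deposited table, and -0.29 and -0.54 with normexp. Pkm read -0.47 and -0.42, then -0.47 and -0.54, then -0.45 and -0.58 in the same order, and -0.067 in wild type cells with the other percentile. That percentile also gave -0.28 for Eno2 and -0.043 for Pdk1 in wild type cells. Aldoa in knockout cells read -0.087 after quantile normalisation and -0.093 with normexp. The deposited table gave -0.027 for Pgam1 in wild type cells, -0.0032 for Eno1 and 0.98 for Pgd in knockout cells, and -0.62 for Eno2 between the untreated genotypes. Averaging probes gave -0.54 for Hk1 and -0.47 for Gapdh between the genotypes with LPS. Taken singly, the Hk1 probes read 0.14 and -1.21 there, and the Gapdh probes read -0.72 to 0.04. Why directions reversed was not tested. Averaging also gave -0.37 for Pfkfb3 between the untreated genotypes, where 1 untreated knockout array lacks the brighter probe and its average is that of the dimmer probe alone; taken singly, the probes read 0.57 and 0.82.

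A replicate block gave 11 members (3804 genes) between the genotypes with LPS, where same-numbered arrays were taken as pairs on weak correlations alone. Elsewhere the arrays share only a number. There the block gave 28 members (8207 genes) in knockout and 23 (8358 genes) in wild type cells, and 5 (2234 genes) between the untreated genotypes. In the difference it gave 2 (1099 genes), Eno2 and Hk3 (adjusted p = 0.0346 for Hk3, and 0.0778 and 0.0693 for Pfkfb3 and Pfkm). Without the block, 2607 genes passed between the untreated genotypes and 1472 in the difference. Genotype comparisons carry the slide, and levels near the floor of -4.50, as for Slc16a1, limit the size of a change.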
